A study of Arabidopsis thaliana with 18 samples.

Results

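The microRNAs (miRNAs) of whole small RNA were compared between rosette leaves of Arabidopsis thaliana Col-0 treated with Alternaria brassicicola and untreated leaves, in 3 libraries each and without immunoprecipitation, which are 6 of the 18 libraries of the study. Members were all miRNA families and all distinct mature sequences that the deposited table lists in these libraries, 82 families with 365 sequences. Alternaria leaves came from plants sprayed with 1000000 spores per ml of strain MUCL 20297 in 0.01% Silwet L 77, a wetting agent, and were harvested on day 3. Untreated leaves came from plants that were not sprayed, and no harvest day is recorded for them. All plants were wild type, 5 to 6 weeks old, and grown at 8 h of light and 22 °C. The contrast therefore holds the spray, the wetting agent and the fungus together. Mock-treated leaves were sequenced too (3 libraries). They entered the filter, the scaling and the shared estimate of spread in every test of levels, and their own levels are given beside some results. The table holds small RNAs alone, so no marker gene could be used to check the tissue, and in whole leaves fewer cells of a type and less RNA per cell cannot be told apart.

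A plant miRNA is cut by DICER-LIKE1 from a hairpin transcript as a duplex of a 5p and a 3p strand. One strand, the guide, is usually kept in an ARGONAUTE protein, mostly AGO1, and directs cleavage of matching transcripts, while the other, the star strand, is usually degraded. In leaves many abundant families restrain transcription factors of development, others adjust the uptake of phosphate, copper and sulfate, and a few act on silencing factors, hormone receptors or resistance genes. Alternaria brassicicola is a necrotrophic fungus that kills and feeds on leaf cells of the cabbage family.

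The sequences below carry the results, 5′ to 3′ and in DNA letters as the table gives them, with the seed (bases 2 to 8) in capitals. The phosphate families come first, then the star strands that fell, the 2 arms of hairpins whose arms behaved unequally, and pairs that differ at their 3′ end.
miR827-3p, 21 nt: tTAGATGAccatcaacaaact
miR827-3p, 20 nt: tTAGATGAccatcaacaaac
miR399b/c-3p: tGCCAAAGgagagttgccctg
miR399f, 5p arm: gGGCAAGAtcaccattggcaga
miR2111b-3p: aTCCTCGGgatacagtttacc
miR169d/g-3p: gCAAGTTGaccttggctctgt
miR169f-3p: gCAAGTTGaccttggctctgc
miR169d/f/g-3p, 20 nt: gCAAGTTGaccttggctctg
miR168a/b-5p: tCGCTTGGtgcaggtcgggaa
miR168a-3p: cCCGCCTTgcatcaactgaat
miR168b-3p: cCCGTCTTgtatcaactgaat
miR391-5p: tTCGCAGGagagatagcgcca
miR391-3p: aCGGTATCtctcctacgtagc
miR408-5p: aCAGGGAAcaagcagagcatg
miR408-3p: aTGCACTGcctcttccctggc
miR393b-3p: aTCATGCGatctctttggatt
miR172b/e-5p, 21 nt: gCAGCACCattaagattcaca
miR846-3p: tTGAATTGaagtgcttgaatt
miR163, 24 nt: tTGAAGAGgacttggaacttcgat
miR163, 22 nt: tTGAAGAGgacttggaacttcg
miR160-5p, 21 nt: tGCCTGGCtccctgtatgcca
miR160-5p, 20 nt: tGCCTGGCtccctgtatgcc
miR158-3p, 20 nt: tCCCAAATgtagacaaagca
miR158-3p, 19 nt: tCCCAAATgtagacaaagc
The 3 miR169 strands share a seed, as do the listed forms of each of miR827, miR163, miR160 and miR158. miR168a-3p and miR168b-3p, stars of the same guide, do not.

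Untreated libraries held 753927 to 1825076 miRNA reads and Alternaria libraries 1688043 to 3007736. Levels are reads per 1000000 miRNA reads (CPM), the unit of every level below. No run lists a number under 15, which leaves room for 28 reads in a library of 2 runs that gives a sequence as 0. That limit came to at most 38.8 CPM in an untreated library, where depth was lower. Replicates are biological per the labels. miRNAs took 2.63 ± 0.114% of the genome-matched reads in untreated and 9.56 ± 1.96% in Alternaria leaves (SD, n = 3), so the differences below are relative to other miRNAs. Mock leaves were near the Alternaria level, at 8.54 ± 4.15% (n = 3), so the higher share was not particular to the fungus. When scaled to genome-matched reads the median log2 difference of all families was 2.13, against 0.35 here.

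Of 77 families tested, 12 were higher (15.6%) and 7 lower (9.09%) after Alternaria, 24.7% in all (limma, adjusted p under 0.05). Of 296 distinct sequences tested, 37 were higher (12.5%) and 26 lower (8.78%), 21.3% in all. Only 12 of the called families and 30 of the called sequences were listed in all 6 libraries. For the rest part of the contrast is between a level and a listing at 0, and these are described apart. On simulated data in which every level under 28 reads in a library was set to 0, more of the calls were false than the nominal rate. That rule is coarser than the real minimum of 15 reads a run for each sequence, so the rate in these data may differ. The limit bears on every adjusted p here.

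**Figure D1:**
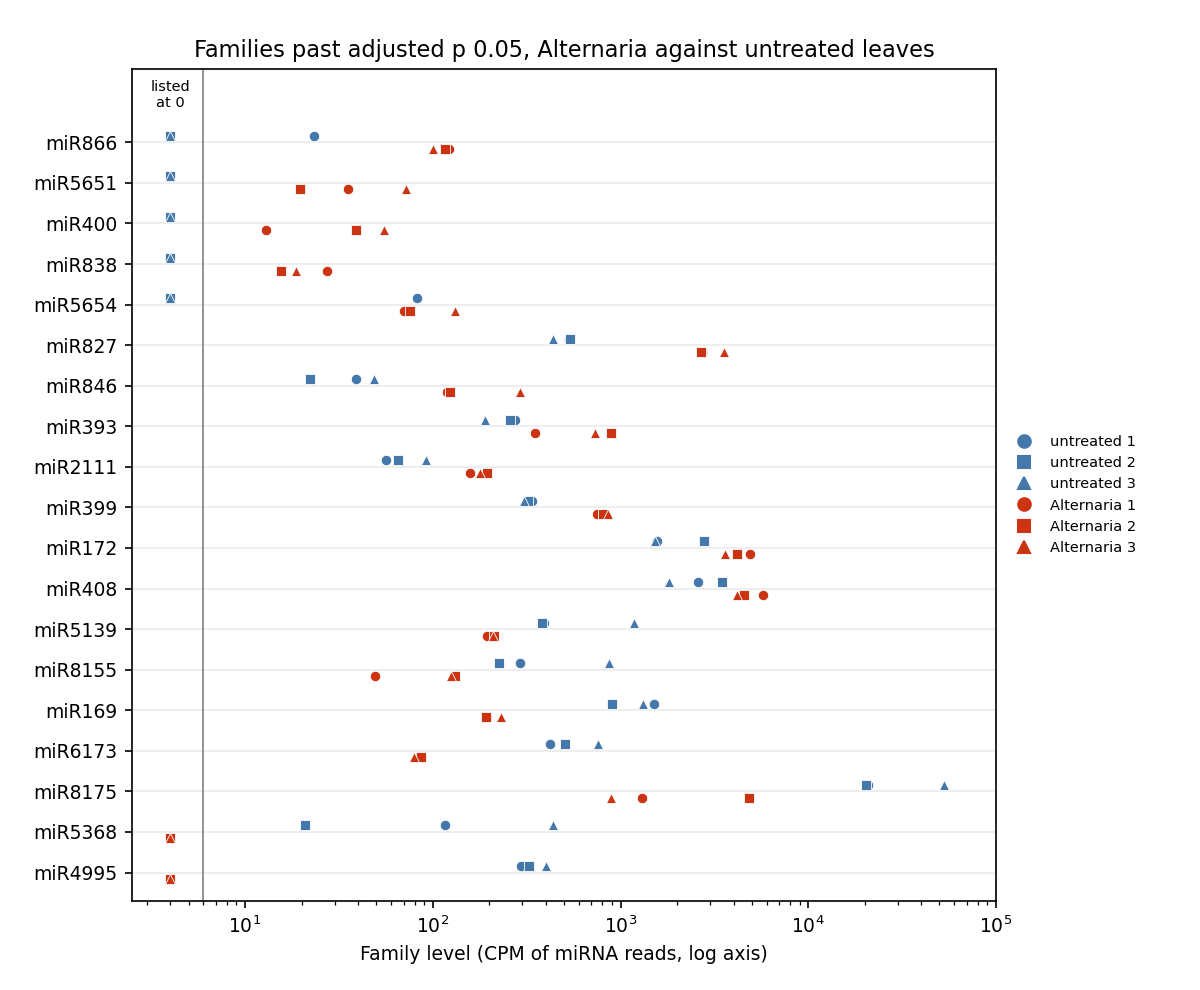
Level of the 19 families past adjusted p 0.05 in each library (log axis, CPM of miRNA reads), blue for untreated and red for Alternaria. Levels did not overlap between the groups in 18 of the 19, miR5654 being the exception, and miR5139 has the opposite direction when scaled to genome-matched reads. Among all 77 families tested, Alternaria lay above in 22, below in 11 and overlapped in 44.

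All 3 tested members of the phosphate list, miR827, miR399 and miR2111, were higher after Alternaria (15.6% of all families were called higher), with a median log2 difference of 1.32 beside 0.35 for all families. The list was chosen with earlier results of these data known, and its other member, miR778, was not tested. All 3 families are known to rise when phosphate is short, and miR827 and miR399 lower ubiquitin enzymes that remove phosphate transporters.

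miR827, which targets the ubiquitin ligase NLA, stood at 532, 540.4 and 435 CPM in untreated leaves and at 2723, 2689 and 3550.4 CPM after Alternaria. Every Alternaria library was thus several times above every untreated one, a 5.95-fold difference of the means (log2 2.56 ± 0.23 SE, adjusted p = 2.33e-06 by limma). Nearly all of it was the 21-nt 3p strand at chr3:22122811-22122831 on the minus strand of RefSeq assembly TAIR10.1, within MIR827. A form 1 nt shorter at its 3′ end was listed at 40.5, 83.4 and 89 CPM after Alternaria and in no untreated library.

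miR399, which targets the ubiquitin-conjugating enzyme PHO2, was at 339.6, 321 and 306 CPM in untreated and 751, 804 and 855 CPM in Alternaria leaves. The groups were narrow and apart (2.49-fold, log2 1.31 ± 0.24 SE, adjusted p = 0.00136). The 2 arms contributed unequally. The guide shared by MIR399b and MIR399c rose from 229 ± 28.9 to 418 ± 73.8 CPM (n = 3; log2 0.86 ± 0.28, adjusted p = 0.0429 by limma). Its call ended when any 1 of the 6 libraries was left out (highest adjusted p 0.336).

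A 22-nt strand of the 5p arm of MIR399f, at chr2:14445009-14445030 (plus strand) and with no mature product annotated there in RefSeq, was at 49, 20.8 and 50.8 CPM in untreated and 237, 242 and 214 CPM in Alternaria leaves. It rose more steeply (log2 2.59 ± 0.45, adjusted p = 0.00215 by limma) and passed without each library in turn. The difference in slope between the arms was not tested. The share of miR399 reads from the 3p arm was 71.1 ± 7.71% in untreated and 56.7 ± 6.70% in Alternaria leaves (n = 3), without overlap.

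miR2111, a phosphate signal that moves between shoot and root, was read through the 3p strand of MIR2111b alone. It was at 56.6, 65.1 and 91.5 CPM in untreated and 157, 194 and 178 CPM in Alternaria leaves (log2 1.32 ± 0.38, adjusted p = 0.0191 by limma). The groups were apart, but mock leaves stood at 142 ± 15.1 CPM (n = 3), near the Alternaria level (log2 of Alternaria against mock 0.31, adjusted p = 0.645). Its call ended without any 1 of 4 libraries (Alternaria 2 or 3, untreated 1 or 2; highest adjusted p 0.0963). In AGO1-bound libraries of both treatments the family was listed at 0.

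miR169, whose guides target NF-YA transcription factors, fell after Alternaria, with no change of direction under any scaling but no call when scaled to genome-matched reads (log2 -0.79, adjusted p = 0.182). Its levels were 1507, 904 and 1316 CPM in untreated and 194, 193 and 230.4 CPM in Alternaria leaves, a 6.03-fold fall (log2 -2.56 ± 0.26 SE, adjusted p = 5.02e-06 by limma). Mock leaves, at 518 ± 83.2 CPM (n = 3), lay between the groups and below every untreated library.

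The reads of the miR169 family were star strands, 99.4 ± 1.12% from the 3p arm in untreated and 95.4 ± 4.31% in Alternaria leaves (n = 3). The strand shared by MIR169d and MIR169g was at 484, 381 and 591 CPM in untreated and 47.7, 38.6 and 43.5 CPM in Alternaria leaves (log2 -3.44 ± 0.31, adjusted p = 6.72e-06 by limma). That of MIR169f, which differs in its last base, was at 552, 376 and 471 and 147, 55.6 and 165 CPM in the same order (log2 -2.05 ± 0.39, adjusted p = 0.0043). Neither strand overlapped between groups, and MIR169f had its lowest level in Alternaria replicate 2.

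The 20-nt form that lacks the last base, and matches all 3 loci, was at 234, 147 and 197 CPM in untreated leaves. After Alternaria it was listed at 0 in replicate 1 and at 10.9 and 4.91 CPM in the others (log2 -5.53 ± 0.87, adjusted p = 0.0016 by limma). All 3 calls held without each library in turn, and that of MIR169f ended when scaled to genome-matched reads (log2 -0.28, adjusted p = 0.626).

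miR163, which targets SABATH methyltransferases of secondary metabolism, was higher in every Alternaria library than in any untreated one but did not pass the test with all libraries. Its family level was 1819.6 CPM in untreated replicate 1 and 1415 CPM in replicate 2, and it was listed at 0 in both runs of untreated replicate 3. Alternaria libraries held 7881, 10752 and 19967 CPM, mock libraries 1901 ± 830.5 CPM (n = 3). With all libraries the log2 difference was 6.44 ± 2.88 SE (adjusted p = 0.131 by limma), and without untreated replicate 3 it was 2.61 (adjusted p = 0.00332). The same untreated replicate had the highest levels of miR8175, miR5368 and miR5139 among the 6 libraries.

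The 24-nt miR163 at chr1:24884359-24884382 (plus strand, MIR163) carried most of the family, at 7292, 10096 and 18796 CPM in the Alternaria libraries. A 22-nt form that lacks its last 2 bases was at 68.6, 97.7 and 147 CPM after Alternaria and unlisted in untreated leaves, and rose (log2 6.65 ± 1.39, adjusted p = 0.00702 by limma). A 23-nt form that lacks the first base, which shifts the seed by 1 position, was at 66.5, 61.2 and 129 CPM and also passed (log2 6.35 ± 1.39, adjusted p = 0.00702). In every Alternaria library both forms exceeded the highest level that a listing at 0 allows in an untreated library.

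miR393, miR172, miR408 and miR846 were higher too, and each was listed in all 6 libraries without overlap. miR393, which targets the auxin receptors TIR1 and AFB, was at 273, 256 and 189 CPM in untreated and 349, 886 and 733 CPM in Alternaria leaves (log2 1.36 ± 0.34, adjusted p = 0.00951 by limma). Alternaria replicate 1 was the lowest of its group and above all untreated libraries. The call ended without any 1 of 5 libraries (all but Alternaria 1; highest adjusted p 0.135).

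The strand that moved was miR393b-3p, the star of MIR393b at chr3:20691778-20691798, from 177 ± 31.6 to 552 ± 193 CPM (n = 3; log2 1.58 ± 0.33, adjusted p = 0.00702 by limma). The guide of both loci, miR393a/b-5p, was at 62.2 ± 25.7 and 70.4 ± 58.9 CPM in the same order (log2 -0.25 ± 0.76, adjusted p = 0.855). The groups of the guide overlapped. The call of miR393b-3p ended without untreated 2 or untreated 3 (highest adjusted p 0.0730).

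miR172, which restrains AP2-like factors of the juvenile phase and flowering, was at 1574, 2798 and 1531 CPM in untreated and 4873, 4155 and 3622 CPM in Alternaria leaves (log2 1.15 ± 0.29, adjusted p = 0.00951 by limma). The 5p strand of MIR172b and MIR172e rose in 2 lengths, 20 nt (log2 1.59 ± 0.45, adjusted p = 0.026) and 21 nt (log2 1.21 ± 0.36, adjusted p = 0.0306). The 3p guide of MIR172a and MIR172b did not pass (log2 0.76 ± 0.32, adjusted p = 0.112), though its groups were apart. The calls of the 5p strand ended without any 1 of 4 and 5 libraries (highest adjusted p 0.238 and 0.286), and the family's call ended without untreated 1 (adjusted p = 0.132) and without untreated 3 (adjusted p = 0.127).

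miR408, which targets plantacyanin and laccases and accumulates when copper is short, was at 2589.9, 3482 and 1802 CPM in untreated and 5706, 4554 and 4166 CPM in Alternaria leaves (log2 0.91 ± 0.30, adjusted p = 0.0374 by limma). The call ended without any 1 of the 6 libraries, and without untreated 3 the log2 difference was 0.38 (adjusted p = 0.382). The 5p strand, usually taken as the star, rose from 1509.8 ± 532 to 3633 ± 689 CPM (n = 3; log2 1.31 ± 0.32, adjusted p = 0.0124 by limma). Its call ended without untreated 1 or untreated 3 (highest adjusted p 0.133). The guide, miR408-3p, was at 784 ± 214 and 835 ± 112 CPM in the same order (log2 0.12 ± 0.33, adjusted p = 0.839). The hairpin lies on the plus strand, with the arms at chr2:19319866-19319886 and chr2:19319933-19319953, in an exon of AT2G47020 in the same annotation. The strand of AT2G47020 was not compared with that of the hairpin, so whether its reads could be taken for hairpin reads was not tested.

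miR846, which targets jacalin lectins, was at 39.1, 22.2 and 48.6 CPM in untreated and 118, 123 and 293 CPM in Alternaria leaves (log2 2.19 ± 0.56, adjusted p = 0.00951 by limma). Alternaria replicate 3 stood above the other libraries of its group. The call ended without Alternaria 3 (adjusted p = 0.0607) or untreated 2 (adjusted p = 0.0663).

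Star strands rose in families whose totals did not pass. miR168 targets AGO1 itself, and its guide, shared by MIR168a and MIR168b, was at 139380.0, 101975 and 103779 CPM in untreated and 234826, 145869 and 123867 CPM in Alternaria leaves (log2 0.51 ± 0.26, adjusted p = 0.178 by limma). The star of MIR168a, at chr4:10578737-10578757, was at 3454, 4247 and 3375 and 21064, 8177 and 9399 CPM in the same order. Every Alternaria library was above every untreated one, replicate 1 the most (log2 1.68 ± 0.37, adjusted p = 0.00702). The star of MIR168b was listed in 1 untreated library, at 46.7 CPM, and in the Alternaria libraries at 178, 108 and 254 CPM (log2 5.56 ± 1.23, adjusted p = 0.00702). The call of miR168a-3p ended without untreated 1 (adjusted p = 0.0703).

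miR391, a relative of miR390, did not pass as a family (log2 0.71 ± 0.28, adjusted p = 0.0664 by limma). Its star, miR391-3p at chr5:24293211-24293231, was at 449, 442 and 354 CPM in untreated and 1146, 1353 and 1405 CPM in Alternaria leaves. That rise passed (log2 1.65 ± 0.28, adjusted p = 0.00215) and held without each library in turn. miR391-5p was at 2739 ± 545 and 4281 ± 599 CPM in the same order (n = 3; log2 0.65 ± 0.32, adjusted p = 0.162 by limma).

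Across the 29 families read from both arms, the 3p share of a family's reads was above in Alternaria leaves in 6, below in 4 and overlapping in 19. It was 3.30 ± 0.775% in untreated and 7.13 ± 1.48% in Alternaria leaves for miR168, and 10.3 ± 2.60% and 19.5 ± 3.43% for miR391 (n = 3). For miR393 it was 74.5 ± 7.95% and 90.8 ± 5.51%, and for miR408 35.6 ± 4.50% and 19.95 ± 2.49%. The guide is the 5p strand in the first 3 and the 3p strand in miR408, so in all 4 the share of the star was higher after Alternaria. The converse held in 3 families with 3p guides. The 3p arm of miR171 went from 23.8 ± 1.03% to 41.9 ± 16.4%, the largest move of the 6 families above, with Alternaria 2 at 60.7%. It took 92.3 ± 1.28% and 94.3 ± 0.353% of miR166 and 98.96 ± 0.269% and 99.5 ± 0.0774% of miR165 in the same order. These shares were chosen after their values were seen and carry no test.

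**Figure D2:**
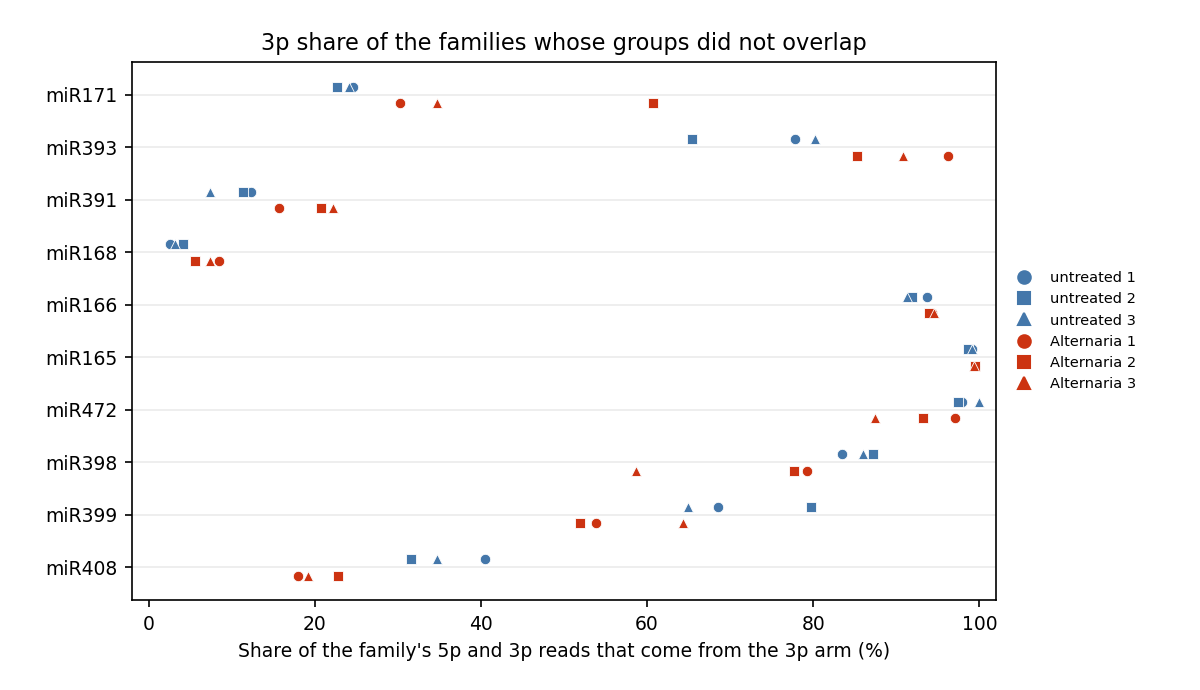
Share of a family's arm-assigned reads that come from the 3p arm, in percent, in each library, for the 10 of 29 families whose groups did not overlap, blue for untreated and red for Alternaria. miR168, miR391 and miR393 had higher 3p shares after Alternaria and miR408, miR399 and miR398 lower ones.

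miR398, which targets copper superoxide dismutases, was at 2762 ± 647 CPM in untreated and 2203 ± 475 CPM in Alternaria leaves (n = 3; log2 -0.32 ± 0.28, adjusted p = 0.397 by limma). The share of its leading sequence was 64.4 ± 3.86% and 49.5 ± 7.78% in the same order, without overlap.

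Among sequences listed in all 6 libraries, 12 were higher and 18 lower after Alternaria. All 12 higher ones lie in MIR hairpins, as do 13 of the lower ones, and the other 5 come from rRNA, tRNA or no MIR locus. The 13 include sequences of miR8175, a family that in part also matches tRNA-Asp. miR841-5p, at 71.2, 20.8 and 59.9 CPM in untreated and 190.0, 98.1 and 125 CPM in Alternaria leaves, was another higher one (log2 1.55 ± 0.51, adjusted p = 0.0476 by limma), a call that ended without any 1 library.

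Of the forms listed in all 6 libraries, 4 of 31 shortened at the 3′ end and 4 of 19 shortened at the 5′ end were lower, beside 3 of 67 leading sequences and 18 of 167 in all. Of the 4 shortened at the 5′ end, 2 belong to miR8175. Over all reads the share of forms shortened at the 3′ end overlapped between groups. The 19-nt form of miR158, which lacks the last base of the abundant 20-nt form, was at 4924, 5447 and 5394 CPM in untreated and 782, 3741 and 2788 CPM in Alternaria leaves (log2 -1.38 ± 0.45, adjusted p = 0.0417 by limma). The 20-nt form did not pass (log2 0.37 ± 0.26, adjusted p = 0.32). The call of the 19-nt form ended without Alternaria 1 or any untreated library (highest adjusted p 0.136). Of miR166, whose guide targets HD-ZIP III factors, a 19-nt 3p form fell (log2 -1.82 ± 0.42, adjusted p = 0.00934) and held without each library. That call ended when scaled to genome-matched reads (log2 -0.059, adjusted p = 0.914) and with the 6 libraries alone (adjusted p = 0.0513). Its 21-nt guide, the most abundant sequence of the family, had a log2 of 0.18 ± 0.30 (adjusted p = 0.727).

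The following 7 log2 differences, each past adjusted p 0.05, and that of the 19-nt miR158 turned positive when scaled to genome-matched reads. They were -1.22 for the 20-nt miR164, which targets NAC factors, -1.34 for the 5p star of miR165 and -1.10 for a 20-nt 5p form of miR166. A 5p star of miR171, whose guide targets GRAS factors, had -1.02. Both 20-nt forms of miR390, the AGO7 partner that triggers tasiRNAs from TAS3, were lower, at -1.07 for the one short at its 3′ end and -0.92 for the one short at its 5′ end. The 19-nt tRNA fragment listed as miR6478 had -1.57. The 20-nt fragment of the same tRNA also passed (log2 -1.69) with overlapping groups and the same turn. Each of these calls but that of the 19-nt miR158 ended without Alternaria 3 (highest adjusted p over the fits without 1 library 0.0714 to 0.203), and for the 20-nt miR164 and the 19-nt miR6478 without that library alone.

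Three-prime-shortened forms of miR160, which targets auxin response factors, took 39.6 ± 0.871% of its 5p reads in untreated and 23.6 ± 2.71% in Alternaria leaves (n = 3), with no overlap. The 21-nt form was at 1575 ± 358 and 2513 ± 675 CPM and the 20-nt form at 794 ± 134 and 649 ± 176 CPM, neither past the test (adjusted p = 0.16 and 0.521 by limma). The share was also lower without overlap for miR158, going from 7.79 ± 0.358% to 3.00 ± 2.19%, and for the 3p arm of miR169, from 30.4 ± 2.87% to 6.41 ± 8.72%. Of 35 family arms it was below in 7, above in 6 and overlapping in 22. An unlisted form counts as 0 in these shares, which were chosen after their values were seen and carry no test.

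By length, 19-nt reads were 1.14, 1.16 and 3.85% of the miRNA reads in untreated and 0.247, 0.779 and 0.509% in Alternaria libraries, with untreated 3 far above the others. In untreated 3 miR8175 stood at 53091 CPM, its leading 20-nt sequence took 42.0% of that, and its other forms are shorter. Their part in the 19-nt share was not tested. The 24-nt reads were 0.156, 0.120 and 0% in untreated and 0.598, 1.09 and 1.91% in Alternaria libraries, and the 1 sequence of that length that was tested is miR163. By first base, U (T in the table) went from 73.2 ± 1.41% to 82.6 ± 2.62% and A went from 20.3 ± 1.66% to 12.3 ± 1.71% (n = 3). miR390, which begins with A, was at 210755, 184101 and 159605 CPM in untreated and 148913, 115302 and 91949 CPM in Alternaria leaves (log2 -0.66 ± 0.24, adjusted p = 0.0581 by limma, with the opposite direction when scaled to genome-matched reads). Of the 11 length and base shares, 9 did not overlap. Each of these had p = 0.1 in an exact two-sided permutation test, the smallest that 3 against 3 can give, and an adjusted p of 0.122, so none could pass.

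**Figure D3:**
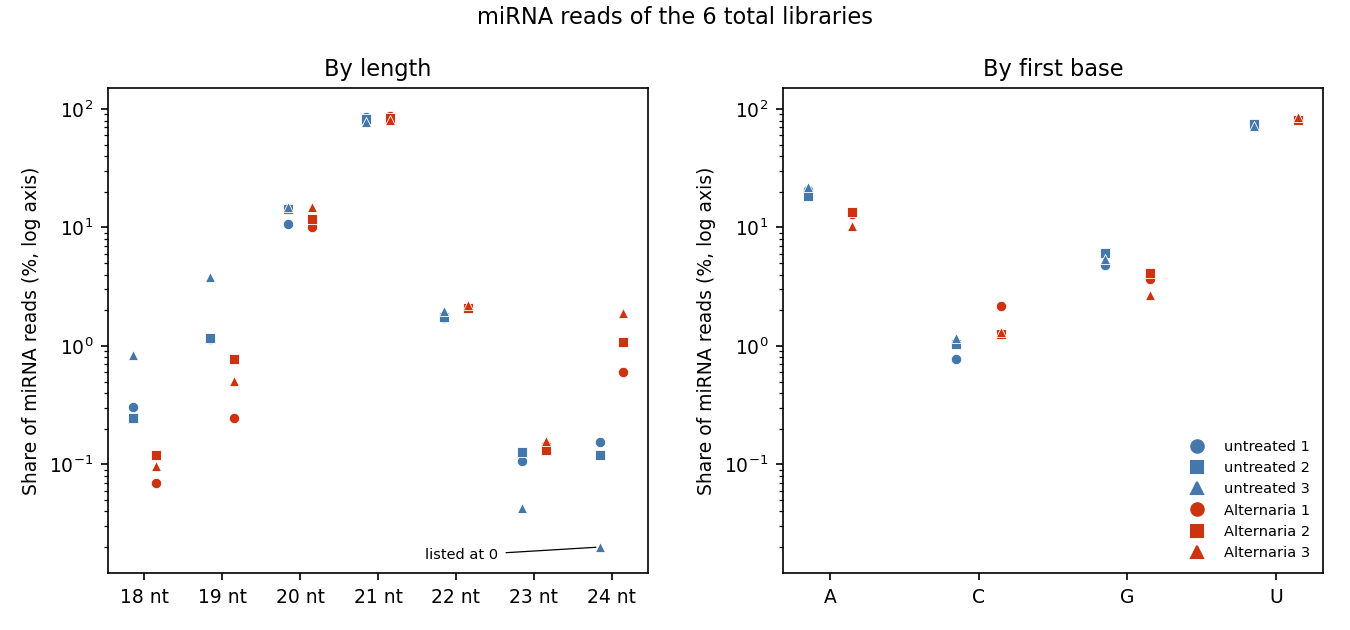
Share of miRNA reads by length and by first base in each library (percent, log axes), blue for untreated and red for Alternaria. The 18-nt and 19-nt shares were lower and the 24-nt share higher in every Alternaria library than in any untreated one, and the 24-nt share of untreated 3 is listed at 0. The 18-nt and 19-nt shares were highest in untreated 3, which also had the highest level of miR8175.

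The share of a family's leading sequence was compared in 40 families. It was above in 7 and below in 10 after Alternaria without overlap, and none passed (exact two-sided permutation test, p = 0.1 as the smallest possible, lowest adjusted p 0.235). Among those above, miR408 went from 57.3 ± 3.89% to 75.4 ± 2.79%, miR160 from 53.9 ± 0.964% to 67.0 ± 1.505% and miR166 from 67.9 ± 1.22% to 75.5 ± 1.54% (n = 3). Among those below, miR399 went from 71.1 ± 7.71% to 51.8 ± 6.55% and miR396, which targets growth-regulating factors, from 66.8 ± 3.65% to 55.4 ± 7.35%.

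Several lower families matched rRNA or tRNA. All 10 sequences of miR4995 match an organellar 23S rRNA, found in the mitochondrial genome too, and the family was at 294, 324 and 401 CPM in untreated leaves and listed at 0 in all Alternaria libraries, at least 2.45-fold lower when 28 reads are allowed for each of its sequences (adjusted p = 0.00117 by limma). miR5368, of plastid 23S rRNA, was at 117, 20.8 and 436 CPM in untreated leaves and at 0 in Alternaria leaves (adjusted p = 0.00142 by limma). Untreated 2 lay below the level of up to 40.5 CPM that a listing at 0 allows its sequences in an Alternaria library, so no fold is given. miR6173, of plastid 16S rRNA, was at 419, 507 and 761 and 85.2, 86.8 and 79.2 CPM (log2 -2.69 ± 0.47, adjusted p = 0.00117), a call that ended when scaled to genome-matched reads (log2 -0.92, adjusted p = 0.201). Mock leaves held miR4995 at 15.4 ± 26.8, miR5368 at 35.6 ± 14.5 and miR6173 at 123 ± 92.1 CPM (n = 3). Between mock and untreated, miR4995 and miR6173 were called lower (adjusted p = 0.0154 and 0.012 by limma) and miR5368 was not (0.551). Between Alternaria and mock, miR5368 was called (adjusted p = 0.0307 by limma) and miR4995 and miR6173 were not (0.444 and 0.752).

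miR8175, whose MIR locus is at chr2:3740938-3740957 and 3 of whose 5 sequences also match tRNA-Asp, was at 20897, 20231 and 53091 CPM in untreated and 1299, 4856 and 884 CPM in Alternaria leaves (log2 -3.99 ± 0.77, adjusted p = 0.00891 by limma). miR8155 (log2 -2.04 ± 0.52, adjusted p = 0.00951) and miR5139 (log2 -1.45 ± 0.41, adjusted p = 0.0174) share a sequence with no MIR locus, and when scaled to genome-matched reads miR5139 turned positive and the call of miR8155 ended (log2 -0.27, adjusted p = 0.706). Their calls ended without Alternaria 1 (miR8155, adjusted p = 0.0551) and without Alternaria 1 or 3 (miR5139, highest adjusted p 0.0738). Mock leaves held miR8175 at 6713 ± 3751, miR8155 at 147 ± 53.2 and miR5139 at 190 ± 69.8 CPM (n = 3). None of the 3 was called between Alternaria and mock (adjusted p = 0.294, 0.508 and 0.831 by limma). Of the 3, miR5139 was called between mock and untreated (log2 -1.63, adjusted p = 0.0251 by limma). All reads without a MIR locus were 0.568 ± 0.278% of the miRNA reads in untreated, 0.155 ± 0.0839% in mock and 0.145 ± 0.0568% in Alternaria leaves (n = 3). This share leaves out miR8175, which has a MIR locus, so tRNA-like reads of that family are not in it. RNA quality was not measured in these files, and its part in the fragments was not tested.

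Of the 37 higher sequences, 25 were unlisted in at least 1 untreated library. In 7 of them each Alternaria value was above 38.8 CPM, the highest limit of an untreated library, without overlap between groups. These were 2 forms of miR163, 1 of miR827, miR168b-3p, miR866-3p, a 22-nt 5p strand of miR403 and a 20-nt 3p strand of miR167. miR866 was at 121, 116 and 100.5 CPM after Alternaria and at 23.3 CPM in untreated 1, and unlisted in the others (log2 5.29 ± 1.21, adjusted p = 0.00746 by limma). miR403, which targets AGO2, did not pass as a family (log2 0.54, adjusted p = 0.0725), and the call of its 5p strand ended without Alternaria 3, untreated 2 or untreated 3 (highest adjusted p 0.112).

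In 17 of the other 18 at least 1 Alternaria value was under that limit, and in miR5654 the groups overlapped. They include the called sequences of 3 families called higher, miR5651, miR400, which targets PPR genes, and miR838, which lies in an intron of DCL1. miR5651 was at 35.4, 19.5 and 72.3 CPM and miR400 at 13, 39.1 and 55 CPM after Alternaria, each with a value under the limit, so no fold is given. miR838, at 27.4, 15.6 and 18.7 CPM, lay below 38.8 CPM throughout. These 3 families were listed at 0 in every untreated library, so they entered the test through the other libraries. miR5651 passed the filter through the Alternaria libraries alone and was tested in only 3 of the fits without 1 library. Its call there therefore adds no support. The calls of miR400, miR838 and miR5654 ended without any 1 of at least 5 libraries (highest adjusted p 0.134, 0.134 and 0.183). miR5654 overlapped, at 70.1, 75.6 and 132 CPM after Alternaria beside 82.9 CPM in untreated 1. With unlisted values set to the largest unlisted number, 20 sequences were higher and 34 lower.

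**Figure D4:**
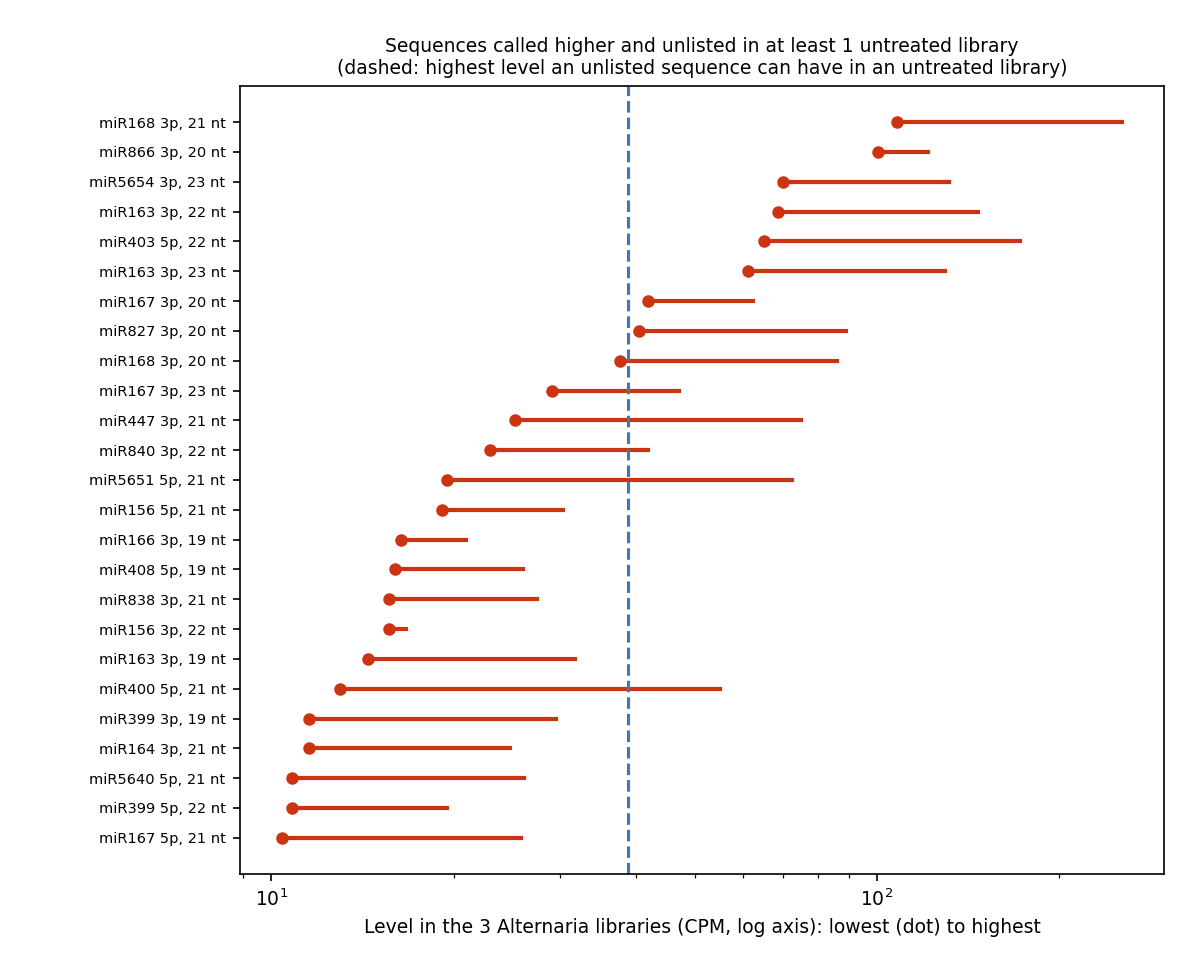
Lowest (dot) to highest level in the 3 Alternaria libraries (CPM, log axis) of the 25 sequences called higher that at least 1 untreated library does not list. The dashed line at 38.8 CPM is the highest level an unlisted sequence can have in an untreated library, and miR5654 lies above it while overlapping an untreated library that lists it.

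By role, the counts stand beside 24.7% of all families called and 15.6% called higher, so that 1 called member in a list of 4 to 11 is near or below that share. The phosphate list was the only one with every tested member past the test. Because the lists were chosen with earlier results of these data known, that count adds no independent support. In the sulfate and nitrogen list of 2 miR169 fell and miR395, which targets ATP sulfurylases, was at log2 -0.25. In the copper list miR408 rose and miR398 did not pass, in the auxin list of 5 miR393 rose and 4 did not pass (median 0.22), and in the immunity list of 5 miR393 again was the only one (median 0.17). The development list of 11 had miR172 higher and 10 not past the test (median 0.02). In the silencing list of 4 only miR838 passed (median 0.56), and in the list of PPR and TAS families miR400, with miR173 at log2 0.72 and miR161 at -0.15. Secondary metabolism had miR846 past the test and miR163 not. The immunity members miR472, which targets resistance genes, and miR863 were at log2 0.17 and 0.93 (adjusted p = 0.676 and 0.0659). The lists sort families by the targets of their guides, while levels are of whole families, star strands included. In miR393 and miR408 a star strand passed and the guide did not (adjusted p = 0.855 and 0.839 by limma). In miR172 the 5p strand passed and the 3p guide did not, and the reads of miR169 were mostly star strands.

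**Figure D5:**
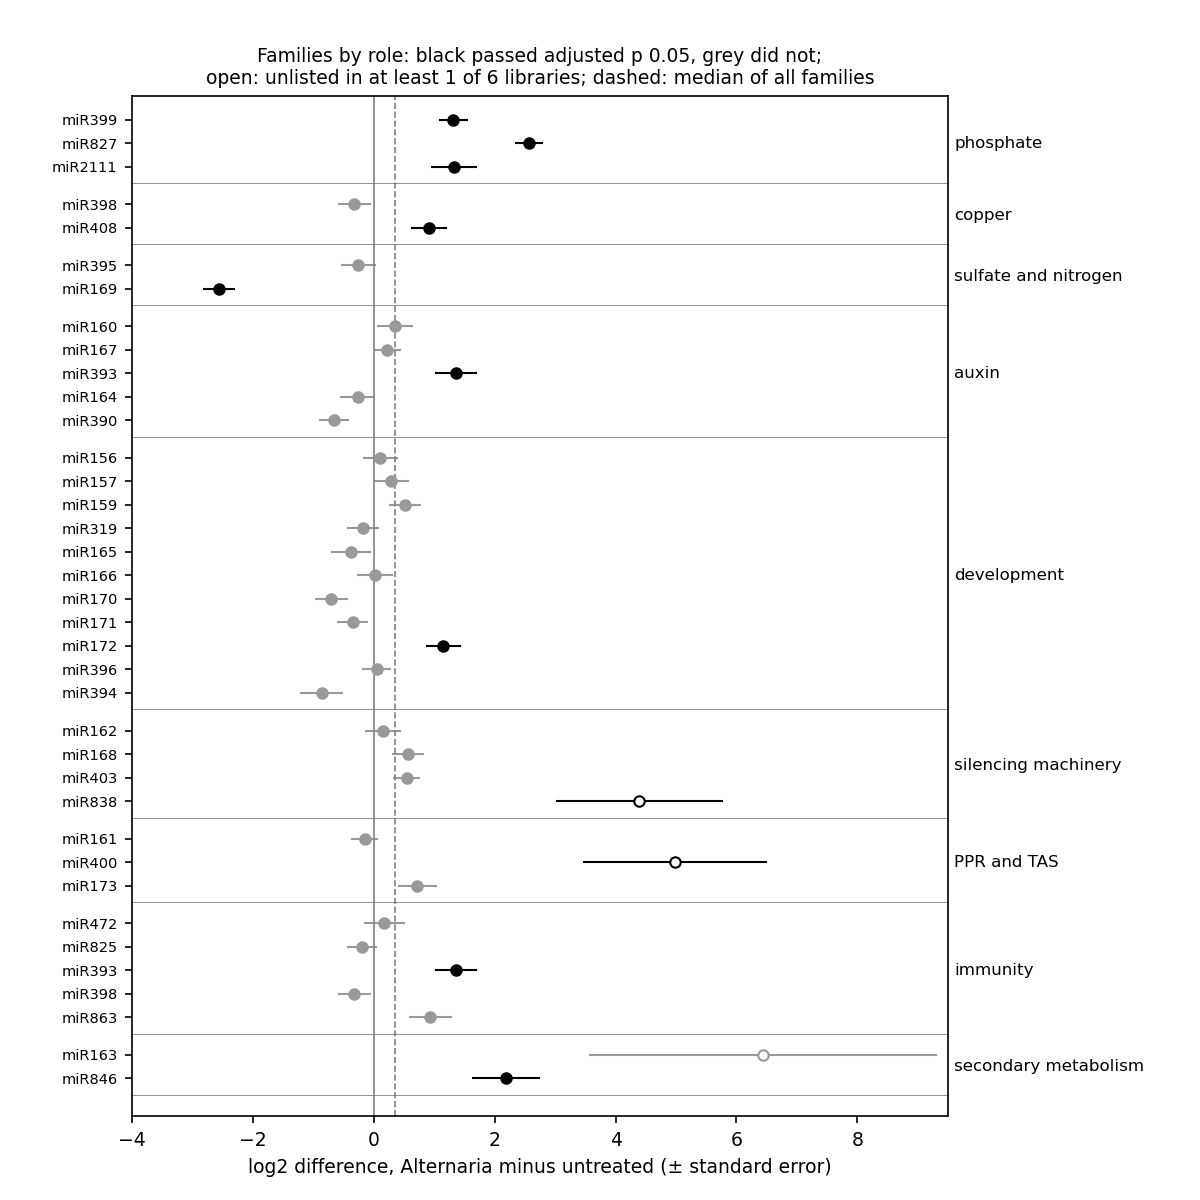
Log2 difference in level, Alternaria minus untreated, with its standard error, for the tested families of 9 lists by role. Levels are of whole families, star strands included. Black points passed adjusted p 0.05, open points were unlisted in at least 1 of 6 libraries, and the dashed line is the median of all families at 0.35, which is 2.13 when scaled to genome-matched reads.

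The most abundant families did not pass. By their mean over the 6 libraries these were miR156, miR159, miR166, miR168 and miR390. The highest group mean was that of miR390 in untreated leaves, at 184820.0 ± 25583 CPM, and that of miR168 in Alternaria leaves, at 182388 ± 66035 CPM (n = 3). miR166 had a log2 of 0.02 and miR156, which targets SPL factors, 0.11 (adjusted p = 0.947 and 0.759 by limma). miR159, which targets GAMYB-like factors, had 0.51 (adjusted p = 0.135). miR390 was the nearest to the threshold.

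Mock leaves share the fit with both groups and were set beside the called families. For all families 6.49% were called between Alternaria and mock and 5.19% between mock and untreated. Of the 19 called families, 4 were also called between Alternaria and mock and 4 between mock and untreated. The mock mean lay between the other means in 17 of the 19 called families and 56 of the 63 called sequences. Called features have their other 2 means apart by selection, which favours such a place, so these counts cannot show a graded response. Between Alternaria and mock, miR827 had a log2 of 2.32 (adjusted p = 8.08e-06), miR399 0.87 (0.0445), miR169 -1.32 (0.00674) and miR393 0.68 (0.314; limma). Between mock and untreated the values were 0.25 (0.574), 0.45 (0.316), -1.24 (0.012) and 0.68 (0.289) in the same order. These contrasts share libraries with the main one.

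In AGO1-bound libraries, made apart, 9 of the 19 called families were listed at 0 in both treatments and 10 were tested, 4 of them past adjusted p 0.05 (8.86% of all families tested there). miR827 was at 129 ± 38.6 CPM in untreated and 269.9 ± 79.3 CPM in Alternaria AGO1 libraries (n = 3; log2 1.05, adjusted p = 0.017 by limma). miR399 was at 147 ± 41.1 and 348 ± 72.9 CPM (log2 1.25, adjusted p = 0.0067). Among the star strands, miR168a-3p was at 4.47 ± 1.1 CPM and miR393b-3p at 12.7 ± 5.07 CPM in the Alternaria AGO1 libraries, and miR391-3p was listed at 0 there.

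In the authors' deposited table for the same groups 9 families have an adjusted p under 0.05. Of these 8 were also called here, which is 88.9% of that list and 42.1% of the 19, and the ninth is miR163. Of the phosphate families miR827 passed there (adjusted p = 4.07e-06 by the authors' DESeq), while miR399 (0.0690) and miR2111 (0.182) did not. Nor did miR172 (0.0690), miR393 (0.180), miR408 (0.251), miR846 (0.0683) or miR8175 (0.0570), all called here. In the authors' deposited table the log2 ratio was 3.57 for miR163 (adjusted p = 0.00286) and -2.67 for miR169 (adjusted p = 2.32e-06), with the signs found here.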

How the data were processed

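Small RNA of Arabidopsis rosette leaves was sequenced, 2 runs a library. Per the file headers, the authors deposited read numbers per miRNA sequence and run from miRProf, matched to plant miRBase sequences without mismatches. FastQC and cutadapt and the build TAIR10 are named in the submitters' processing notes. The lowest listed number is 15. These values are not full counts, so no count model was used. Runs were summed, and each of the 6 libraries gave 753927 to 3007736 miRNA reads.

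Levels were tested as log2(CPM + 1) with limma 3.58.1 (R 4.3.3; trend and robust), TMM factors with trims of 0.3 and 0.05, and the 9 total libraries in 1 fit. Features needed 10 reads at the median depth in 3 libraries and 15 in all. P-values were adjusted by Benjamini-Hochberg over all features tested, with a threshold of 0.05. Fold changes on the log2(CPM + 1) scale understate those of low sequences that every library lists. Where a library does not list a sequence they can be overstated, because reads under the listing minimum enter as absent. The median log2 difference of all sequences tested was 0.48 as reported and -0.15 with unlisted values at 14 reads a run. Sequences used the family TMM factors, a choice made after the sequence calls had been seen, and genome-matched scaling was recentred after its first value. The fit was tested on simulated data. Shares used exact permutation tests (scipy 1.17.1). Sequences were placed on RefSeq TAIR10.1, where 461 of 476 had the deposited number of matches.

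Named were all called families, tested list members, the 5 most abundant families, up to 12 sequences each way by log2 change with at least 10 reads, and leading sequences. miR399b/c-3p, miR841-5p and other called sequences listed in all 6 libraries were added after their values were seen, as were the arm shares, forms, listing classes and printed sequences. Members and lists were chosen with earlier results of these data known. In the authors' deposited table of this comparison, made with DESeq 1.2 per the submitters' processing notes, values are a fold ratio, a log2 ratio and p-values.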

Additional observations from a re-analysis of the deposited data

How the results depend on the processing

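With 12 higher and 7 lower families and 37 higher and 26 lower sequences as reported, scaling to genome-matched reads gave 58 higher and 3 lower families and 186 higher and 9 lower sequences. With features listed in all 6 libraries alone, 7 families and 12 sequences were higher and 15 sequences lower. Lower families numbered 11 under library totals, 11 under median-of-ratios factors and 11 with each sequence in its first family. With unlisted values at 14 reads a run, 20 sequences were higher. Leaving out 1 library gave 4 to 13 higher and 6 to 13 lower families, and 13 to 40 higher and 15 to 27 lower sequences. The cause of these moves was not tested. With the 6 libraries alone the calls of miR393 (adjusted p = 0.0720), miR408 (0.0929), miR5654 (0.131), miR393b-3p (0.0567), miR168b-3p (0.0727), the 5p strand of miR172 (0.117 and 0.0977) and that of miR403 (0.141) ended. Same-numbered libraries did not deviate together (r = -0.198, -0.101 and -0.042), and a fit with the replicate block gave 12 higher and 8 lower families and 29 higher and 21 lower sequences. Factors from the sequences, added after seeing the data, gave 33 higher and 30 lower sequences.

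Under genome-matched scaling these log2 values turned positive: miR5139 0.32, miR398 1.46, miR395 1.51, miR164 1.51, miR390 1.12, miR319 1.60, miR165 1.40, miR170 1.07, miR171 1.43, miR394 0.91, miR161 1.63 and miR825 1.57. So did the leading sequences of miR161 (1.76), miR164 (1.48), miR165 (1.41), miR170 (1.03), miR319 (1.66), miR390 (1.12), miR394 (0.91), miR395 (1.24), miR396 (1.55), miR398 (1.07) and miR825 (1.49), the short forms of miR158 (0.39), miR164 (0.55), miR166 (0.66) and miR390 (0.69 and 0.85), the stars of miR165 (0.43) and miR171 (0.74) and miR6478 (0.19 and 0.089). With each sequence in its first family, miR167 was -0.10, miR156 -0.22, miR157 -0.44, miR166 -0.20, miR396 -0.28, miR162 -0.18 and miR472 -0.16. With the 6 libraries only, miR156 was -0.048, miR166 -0.13, miR396 -0.10, miR162 -0.0007 and the leading miR472 -0.093. miR166 was -0.025 under median-of-ratios factors and -0.043 under library totals, where miR396 was -0.016 and the leading miR472 -0.0053, which was -0.073 with factors from sequences. The leading miR161 was 0.012 in run 2 alone. With unlisted values at 14 reads, the 21-nt miR156 was -0.21, the 19-nt miR163 -0.019 and miR838 -0.43.

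Without 1 library, signs changed among uncalled values: miR160 -0.13 to 0.56, miR167 -0.17 to 0.24, miR156 -0.43 to 0.22, miR157 -0.26 to 0.38, miR159 -0.001 to 0.65, miR319 -0.55 to 0.0028, miR166 -0.55 to 0.13, miR396 -0.40 to 0.23, miR162 -0.32 to 0.35 and miR472 -0.37 to 0.33. Their leading sequences ranged from -0.26 to 0.44 (miR157), -0.45 to 0.073 (miR161), -0.32 to 0.36 (miR162), -0.41 to 0.28 (miR166), -0.21 to 0.40 (miR167), -0.61 to 0.11 (miR319), -0.72 to 0.052 (miR396) and -0.47 to 0.26 (miR472). Differences in share ranged, in percentage points, from -0.47 to -0.18 (18 nt), -1.99 to -0.64 (19 nt), -2.39 to 0.0073 (20 nt), -0.35 to 3.37 (21 nt), 0.25 to 0.38 (22 nt), 0.029 to 0.071 (23 nt), 0.75 to 1.41 (24 nt), -8.95 to -7.07 (A), 0.29 to 0.75 (C), -2.25 to -1.52 (G) and 7.87 to 10.1 (U). Untreated depth limits what a listing at 0 can show.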
